A study of Mus musculus with 8 samples.

Results

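The lysyl oxidases and collagen-modifying enzymes described here are 10 genes, taken by symbol from the deposited matrix of 13387 genes. They are 4 lysyl oxidases (Lox, Loxl1, Loxl2 and Loxl3), the lysyl hydroxylases Plod1 and Plod2, the prolyl hydroxylases P4ha1, P4ha2 and P3h1, and the collagen chaperone Serpinh1. All 10 symbols were found. The genes were chosen by function and with their levels in these 8 libraries already known, so the differences between the cultures are given as a description, without p-values. Bulk RNA-Seq had been performed on wild-type C57BL/6 bone marrow megakaryocytes (MKs), the large cells that shed platelets. MKs were kept for 18 hours either by themselves (4 libraries, called MKs alone) or with wild-type bone marrow mesenchymal stromal cells (MSCs, 4 libraries, called cocultures). The MSCs had been sorted as CD45-Ter119-CD31-CD51+CD140a+ cells, where CD140a is PDGFRα. The MKs had been enriched with CD41 beads and not sorted, and the wells of a culture were pooled, so a library may hold other marrow cells. The labels describe MKs recovered from the cultures and freed of platelets, whereas in the paper the RNA is said to come from platelets. The labels do not say whether the libraries of a group came from separate cultures, whereas the paper describes pooled wells per sample and separate mice in each group for the RNA that it calls platelet RNA. A p-value here measures the spread between these libraries. In bulk libraries, a change in the number of cells of a type and a change in RNA per cell cannot be told apart.

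Collagen chains are modified while they are still in the endoplasmic reticulum. Prolyl 4-hydroxylases and lysyl hydroxylases add hydroxyl groups to proline and lysine, the first of which holds the triple helix together, and the chaperone encoded by Serpinh1 binds the folded helix on its way out of the cell. Once collagen has been secreted, lysyl oxidases turn lysine and hydroxylysine side chains into the aldehydes that cross-link collagen and elastin. In bone marrow these enzymes are best known from stromal and bone-forming cells, and lysyl oxidase has also been studied in immature MKs in marrow fibrosis.

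Values are CPM, the deposited counts of a gene as a share of the library's total, brought to a common library size and scaled with edgeR's TMM factors. Totals ran from 4939874 to 12523616 counts. Coculture 3 stood apart from the other libraries. It held the most counts, had the lowest scaling factor (0.765) and had a count in 10735 genes, against 12406 to 13193 genes in the other libraries. The counts of calls, the fitted fold changes of the enzymes and the pathway lists are given with and without it. MKs alone and cocultures held MK and platelet markers at summed levels whose ranges overlapped (1836 to 2174 CPM and 1689 to 2305 CPM), with Pf4 the highest. The mean over these markers in log2(CPM + 1) was lower in every coculture (5.02 to 5.73) than in any library of MKs alone (5.82 to 6.01). Of the 12 markers, 5 had log2 fold changes above 0, and 12 of 12 were tested and not called. At an unadjusted p of at most 0.05, 1 of these markers was lower, and DESeq2 called 1 lower.

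The 10 enzymes together had 58.8 to 67.8 CPM in MKs alone and 1034 to 2569 CPM in cocultures. A gene was called where edgeR's quasi-likelihood test gave a fold change of 2 or more with an adjusted p (Benjamini-Hochberg, over the 11722 genes tested) of 0.05 or less, and the mean of a group reached 1 CPM. All 10 enzymes passed the filter on low counts, and 8 met this rule as higher in cocultures, beside 13.2% of all genes tested. Lox, Loxl1, Loxl3, P4ha2 and Serpinh1 had at most 10 counts each over MKs alone. They passed the filter only through the cocultures, so once tested they could only be called higher. Loxl2 (61 counts over MKs alone) also needed the cocultures to pass, because MKs alone 4 held 6 counts of it, so its direction adds no support either. The other 2 also had log2 fold changes above 0, and 7.31% of all genes tested met the rule as lower. The ranges of the groups did not overlap for 8 enzymes, beside 19.3% of all genes with every coculture above every library of MKs alone. The exceptions in both counts were Plod2 and P4ha1, in which coculture 3 lay below every library of MKs alone. With coculture 3 left out, 10 of 10 met the rule (20.6% of 12267 genes did), and the ranges of all 10 were separate (28.1% of genes). The median log2 fold change was 5.94 over the enzymes and 0.03 over all genes tested, which describes genes that were chosen for this contrast. Each enzyme is shown in the plot of levels by library.

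**Figure D1:**
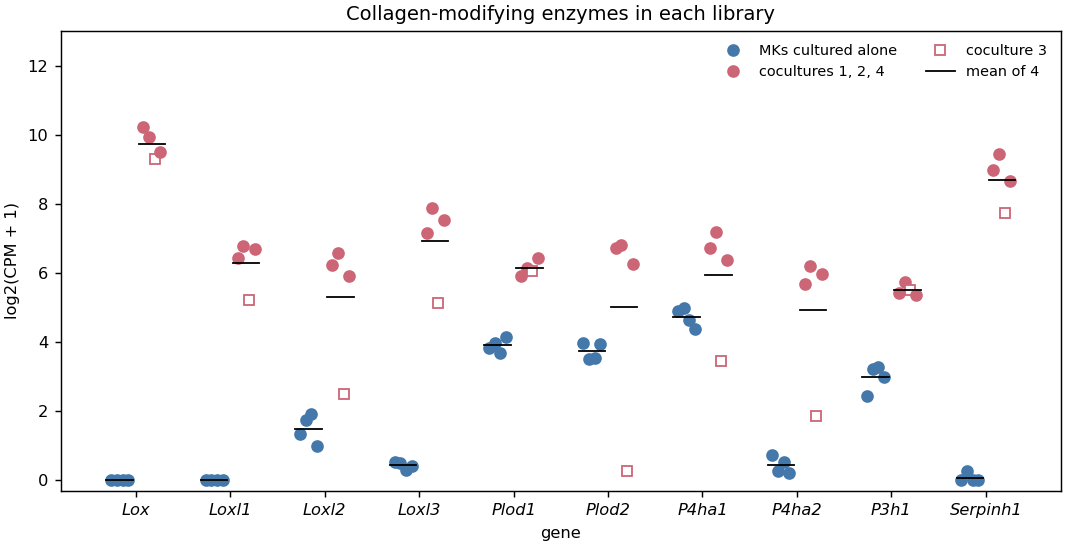
Level of each enzyme in each library as log2(CPM + 1) on the y axis, with the 10 genes on the x axis. Blue points are the 4 libraries of MKs alone, red points are cocultures 1, 2 and 4, the open square is coculture 3 and the bar is the mean of 4 libraries. Lox and Serpinh1 are at or near 0 in MKs alone and highest in cocultures, and coculture 3 lies below MKs alone for Plod2 and P4ha1.

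Lox, the copper-dependent lysyl oxidase that gives the family its name, had no count in any library of MKs alone. It reached 1204, 985, 625 and 726 CPM in cocultures 1 to 4 (885 ± 261, SD, n = 4). Every coculture was therefore far above MKs alone, with coculture 3 the lowest at 64.3% of the mean of the other cocultures. Against a floor of 3 counts over the 4 libraries of MKs alone, Lox was at least 8673-fold higher. This floor, like the others here, covers counting error only. Loxl1, a lysyl oxidase of elastic fiber assembly, was also at 0 in MKs alone. Its levels were 86.4, 108, 36.6 and 104 CPM in cocultures 1 to 4, at least 820-fold higher. Coculture 3 was again the lowest, at 36.9% of the mean of the others. Loxl1 lies at chr9:58287738-58313186 on the minus strand of GRCm38, the assembly of mm10.

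Loxl2 and Loxl3 carry scavenger receptor domains in front of the oxidase domain, and Loxl2 is known for acting on basement membrane collagen. Loxl2 (chr14:69609068-69695834) had 1.54, 2.37, 2.77 and 0.976 CPM in MKs alone. In cocultures 1 to 4 it had 74.4, 94.3, 4.71 and 59.2 CPM. The groups did not overlap, but coculture 3 came within a few CPM of MKs alone. Its log2 fold change was 4.89 ± 0.87 (SE), or 29.7-fold, and 5.20 ± 0.29 without coculture 3. Loxl3 (chr6:83034173-83052562) had 0.441, 0.412, 0.222 and 0.325 CPM in MKs alone, which is 10 counts in all. It had 141, 235, 34.3 and 185 CPM in cocultures, so every coculture was well above MKs alone and coculture 3 was the lowest. The log2 fold change of Loxl3 was 8.70 ± 0.73, and 9.01 ± 0.31 without coculture 3. In the annotation Loxl3 overlaps Htra2 on the opposite strand, and Lox and Loxl2 overlap antisense genes. Whether strand was used in counting is not given in the sources used here, so reads of such partners cannot be told apart.

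Levels of different genes were compared per length, as CPM per kilobase of annotated exon. Shares of a family were computed with this length only and depend on it. Lox held 77.6%, 66.3%, 87.1% and 63.7% of the summed level of the lysyl oxidase family in cocultures 1 to 4. Loxl3 followed with 11.9 ± 5.76% and Loxl1 with 9.80 ± 2.62% (SD, n = 4). Loxl2 held 3.76 ± 2.20%. The remaining family member Loxl4, named after its values were seen, was not tested under the filter on low counts and held 0.83 ± 0.69%. In MKs alone the family rested on few counts, and Loxl2 made up 67.3 ± 20.4% of it.

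Plod1 encodes the lysyl hydroxylase of the collagen helix and Plod2 the one that hydroxylates the ends of the chains, which sets the kind of cross-link formed. Plod1 (chr4:147909753-147936767, minus strand) had 13.2, 14.7, 11.8 and 16.6 CPM in MKs alone and was thus detected in each of them. It had 59.1, 69.8, 65.7 and 85.9 CPM in cocultures. The groups were separate and coculture 3 lay inside the range of the other cocultures. The log2 fold change was 2.31 ± 0.26, or 4.97-fold, and 2.32 ± 0.21 without coculture 3. Plod2 (chr9:92542223-92608428) had 14.8, 10.5, 10.8 and 14.5 CPM in MKs alone. In cocultures it had 106, 112, 0.209 and 75.6 CPM. Cocultures 1, 2 and 4 were high, whereas coculture 3 held 2 counts of Plod2 and was the lowest of all 8 libraries. The log2 fold change was 2.54 ± 1.12 with all libraries, which did not meet the rule, and 2.95 ± 0.21 without coculture 3.

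Plod3, the third lysyl hydroxylase, which also adds sugars, is outside the 10 genes and was named after its values were seen. It rose with a log2 fold change of 1.31 ± 0.37 (adjusted p = 0.033). Per length, Plod3 held 44.4% to 69.3% of the lysyl hydroxylases in MKs alone. In cocultures 1 to 4, Plod2 held 45.7%, 40.3%, 0.20% and 27.9%, and Plod1 held 20.4%, 20.04%, 50.05% and 25.3%. Plod2 was the largest share in cocultures 1 and 2, Plod3 in coculture 4, and Plod1 and Plod3 were nearly level in coculture 3. These shares are drawn by library in the plot of family shares.

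**Figure D2:**
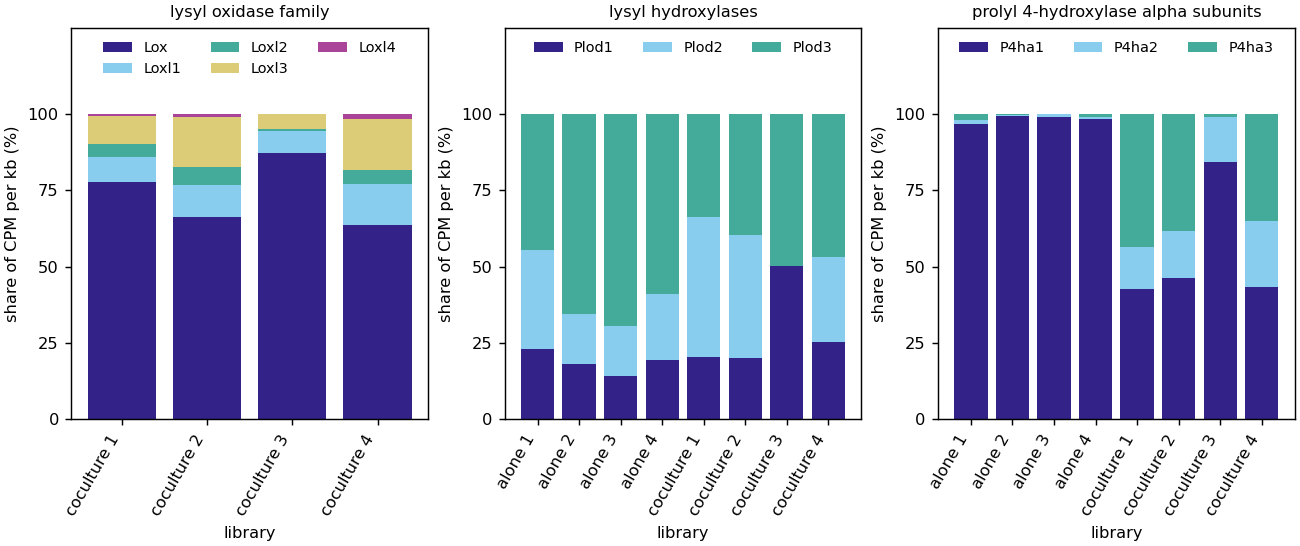
Share of each family member in the summed CPM per kilobase of its family (y axis, %), by library (x axis), for lysyl oxidases in cocultures and for lysyl hydroxylases and prolyl 4-hydroxylase alpha subunits in all 8 libraries. Each bar adds up to all of the family. Lox is 63.7% to 87.1% of its family, P4ha1 is at least 96.6% of the alpha subunits in MKs alone, and Plod2 is almost missing from coculture 3.

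P4ha1 and P4ha2 encode alternative catalytic alpha subunits of collagen prolyl 4-hydroxylase. P4ha1 (chr10:59323296-59373304) had 28.7, 31.0, 24.2 and 19.7 CPM in MKs alone, the highest level per length of the 10 genes there. It had 104, 145, 10.05 and 81.5 CPM in cocultures. Cocultures 1, 2 and 4 lay above every library of MKs alone and coculture 3 lay below all of them. The log2 fold change was 1.72 ± 0.64, which did not meet the rule, and 2.07 ± 0.22 without coculture 3. P4ha2 (chr11:54100095-54131665) was near the floor in MKs alone, with 0.662, 0.206, 0.444 and 0.163 CPM from 10 counts. It had 50.9, 72.7, 2.62 and 61.6 CPM in cocultures. The groups did not overlap, and coculture 3 had 4.24% of the mean of the others. The log2 fold change of P4ha2 was 6.99 ± 1.08, and 7.41 ± 0.34 without coculture 3.

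P4ha1 made up 96.6% to 99.1% of the alpha subunits per length in MKs alone. In cocultures 1 to 4 its share was 42.7%, 46.3%, 84.4% and 43.4%. The share of P4ha2 was 13.8%, 15.3%, 14.5% and 21.6%. The rest came from P4ha3, a further alpha subunit named after its values were seen, with 43.5%, 38.4%, 1.15% and 35.0%. P4ha3 had 80.8, 91.6, 0.105 and 50.1 CPM in cocultures and at most 0.441 CPM in MKs alone, and the filter on low counts removed it because coculture 3 was near 0. Cocultures 1, 2 and 4 thus held all 3 alpha subunits, and MKs alone and coculture 3 mainly P4ha1.

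P3h1 encodes the prolyl 3-hydroxylase that works in a complex with the products of Crtap and Ppib. P3h1 (chr4:119232915-119248975) had 4.41, 8.35, 8.65 and 6.996 CPM in MKs alone. It had 41.5, 52.6, 44.3 and 40.4 CPM in cocultures, where coculture 3 was 98.7% of the mean of the others. The groups were separate. The log2 fold change was 2.65 ± 0.34, or 6.26-fold, and 2.61 ± 0.24 without coculture 3. P3h1 held 42.0% to 68.2% of the prolyl 3-hydroxylases per length in MKs alone and 63.7% to 90.9% in cocultures.

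Serpinh1 (chr7:99345376-99353239, minus strand) encodes HSP47, a chaperone whose known clients are collagens. MKs alone held 2 counts of it in all, both in MKs alone 2 (0.206 CPM), and none in the other libraries of that group. Cocultures had 502, 695, 211 and 405 CPM (453 ± 201, SD, n = 4). Every coculture was high, with coculture 3 the lowest at 39.6% of the mean of the others. The ratio of the pooled levels was 6564, with a 95% counting interval of 1817 to 54208.

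The promoters of 5 of the 10 genes were matched in the RefSeq promoter table (GRCm38.p6), and those of Lox, Loxl1, Loxl2, Loxl3 and Plod2 were not. The 250 bases before the start are printed for P4ha1, which was present in MKs alone, and for P4ha2 and Serpinh1, which were almost absent there. They lie at chr10:59323046-59323295 (plus strand), chr11:54100674-54100923 (plus strand) and chr7:99353240-99353489 (minus strand), and are written 5′ to 3′ on the strand of the gene. The P4ha2 window belongs to a RefSeq start inside the annotated gene. Capitals mark ACGTG, the core of the hypoxia response element, or CACGT, its complement.
P4ha1: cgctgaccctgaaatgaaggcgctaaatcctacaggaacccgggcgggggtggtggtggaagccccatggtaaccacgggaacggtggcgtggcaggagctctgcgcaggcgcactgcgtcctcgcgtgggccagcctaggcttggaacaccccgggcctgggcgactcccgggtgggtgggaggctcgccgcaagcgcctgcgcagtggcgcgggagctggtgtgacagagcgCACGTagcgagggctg
P4ha2: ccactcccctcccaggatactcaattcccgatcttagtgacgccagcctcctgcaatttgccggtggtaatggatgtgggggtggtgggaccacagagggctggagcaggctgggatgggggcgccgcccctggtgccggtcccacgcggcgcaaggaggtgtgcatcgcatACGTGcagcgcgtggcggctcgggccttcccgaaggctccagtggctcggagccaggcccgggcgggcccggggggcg
Serpinh1: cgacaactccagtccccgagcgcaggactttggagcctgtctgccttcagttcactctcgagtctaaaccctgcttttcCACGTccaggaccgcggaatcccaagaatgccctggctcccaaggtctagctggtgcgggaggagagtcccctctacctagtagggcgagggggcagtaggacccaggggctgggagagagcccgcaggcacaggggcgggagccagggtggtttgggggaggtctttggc

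The core ACGTG, searched on both strands, was found 16 bases before the start of P4ha1, 78 before that of P4ha2 and 171 before that of Serpinh1. P3h1 had 2 windows in the table. The one at the annotated gene start held no match, and the one at a RefSeq start inside the gene held ACGTG 31 and 19 bases before that start. Over all windows, 4 of 5 genes had at least 1 match. It occurs in 16.6% of 32851 promoters of this length, and in 18.5% of 27025 genes with a promoter in the table. The GC box GGGCGG was found in 5 of 5 genes and in 32.7% of promoters, and GCGTG in 4 of 5 and 28.2%. CCAAT (33.8% of promoters) was found in P3h1 only and TATAAA (12.4%) in Plod1 only. No match was found for the heat shock element GAANNTTC (6.69%), the TEAD motif GGAATG (12.6%), the AP-1 motif TGACTCA (4.46%), the cAMP response element TGACGTCA (1.55%) or the E-box CACGTG (6.02%), which contains ACGTG. A match is a description of letters in a window and not of binding. P4ha1, P4ha2 and Serpinh1 each had ACGTG, whereas GCGTG was found in P4ha1 and P4ha2 and not in Serpinh1. The bearing of these matches on the levels was not tested.

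The 10 enzymes differed in how far coculture 3 departed from the other cocultures. Plod1 and P3h1 had 91.8% and 98.7% of the mean of cocultures 1, 2 and 4. Lox, Serpinh1 and Loxl1 had 64.3%, 39.6% and 36.9%, and Loxl3 had 18.3%. P4ha1, Loxl2 and P4ha2 had 9.12%, 6.20% and 4.24%, and Plod2 had 0.214%. For 4 of 10 enzymes (40%) the log2 ratio of CPM + 1 was below −3, and for 18.7% of all genes tested, whose median log2 ratio was −0.41. Plod2 and P4ha2, the lowest in coculture 3 relative to the others, had the widest standard errors of the 10 enzymes, as the plot of log2 fold changes with and without coculture 3 shows for both. Why coculture 3 differed was not tested.

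**Figure D3:**
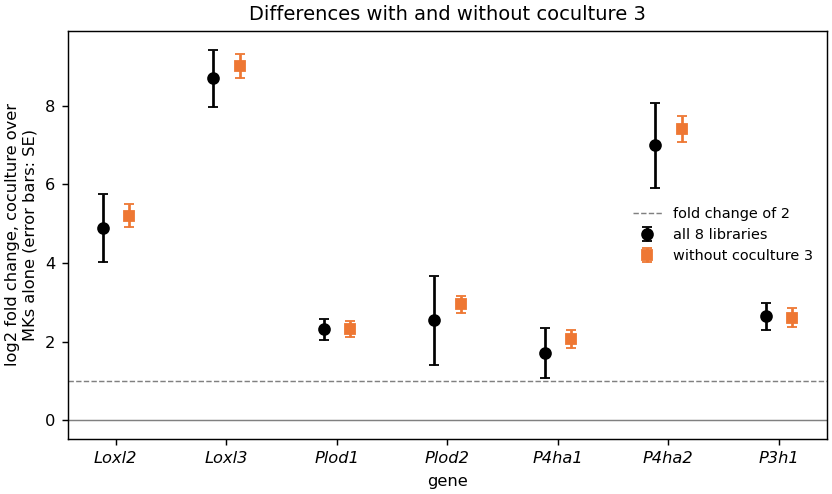
Log2 fold change of coculture over MKs alone (y axis, error bars are SE) for the 7 enzymes with more than 3 counts in MKs alone (x axis). Black circles use all 8 libraries and orange squares leave out coculture 3. The SE of Plod2 is 1.12 with coculture 3 and 0.21 without it, and the SE of Plod1 is 0.26 and 0.21.

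Within MKs alone, the levels per length formed an order with P4ha1 first (6.29 ± 1.22 CPM per kilobase, SD, n = 4). Plod2 (2.34 ± 0.43), Plod1 (2.08 ± 0.31) and P3h1 (1.85 ± 0.50) came next, and neighbors among these genes overlapped. Loxl2 followed at 0.354 ± 0.150 CPM per kilobase, below all libraries of P3h1. Loxl3, P4ha2, Serpinh1, Loxl1 and Lox were at 0.076 CPM per kilobase or less. The order in cocultures was different. Serpinh1 (186 ± 82.4) and Lox (185 ± 54.7) were level with each other and above every library of the third gene. Loxl3 (32.4 ± 18.6), Loxl1 (25.4 ± 9.93), P4ha1 (20.7 ± 13.7), Plod2 (13.6 ± 9.50), P3h1 (11.6 ± 1.44), Loxl2 (10.8 ± 7.11), Plod1 (10.4 ± 1.69) and P4ha2 (7.52 ± 4.95) followed, with every neighbor in this order overlapping the next. Lox and Serpinh1 thus led in the cocultures and were at or near 0 in MKs alone, where the intracellular hydroxylases led. Whether these transcripts came from MKs or from MSCs in the cocultures cannot be told apart from bulk libraries.

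The enzymes were also set beside Col1a1, a chain of type I collagen and a main substrate, in CPM per kilobase. Lox was at 318%, 170%, 744% and 153% of Col1a1 in cocultures 1 to 4. Serpinh1 was at 259%, 235%, 492% and 166%. Loxl3 kept close to 38.8%, 42.1%, 42.4% and 40.4%, also in coculture 3. P3h1 was at 13.6%, 11.3%, 65.5% and 10.5%, and Plod1 at 11.02%, 8.51%, 55.3% and 12.7%. Plod2 was at 24.7%, 17.1%, 0.221% and 14.1%. In coculture 3, which had 115 CPM of Col1a1 against 520 to 795 CPM in the other cocultures, some enzymes were therefore high and others low for Col1a1. This reading holds for Col1a1 only. Coculture 3 had 17.6% of the mean of the other cocultures for Col1a1 and 45.7% for Col1a2, another chain of type I collagen. Col1a2 was named after its values were seen.

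The closest profiles among the enzymes over the 8 libraries were those of Loxl1 and Loxl3 (root mean square difference 0.34 in log2(CPM + 1) after centering) and of Plod1 and P3h1 (0.35). Loxl2 and P4ha2 (0.47) and Lox and Serpinh1 (0.63) came next. Of 11712 other genes, Bgn (0.27), Sparc (0.42) and Ccl7 (0.42) were most like Lox. Bgn encodes biglycan, a proteoglycan that binds collagen, Sparc a collagen-binding matrix protein and Ccl7 a chemokine. Bgn had 1156, 1040, 506 and 1046 CPM in cocultures and at most 0.441 CPM in MKs alone. Plpp1, a lipid phosphatase (0.33), Ccl7 (0.36) and the cytochrome P450 gene Cyp1b1 (0.38) were most like Serpinh1. Hoxa10, a homeobox gene (0.18), Sytl2 (0.22) and 5730507C01Rik (0.27) were most like P4ha1, and like it they were lowest in coculture 3. With 0.1 CPM added in place of 1 CPM, Hoxa10 alone of these genes stayed among the 3 most alike.

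Other genes of the pathway were read from 6 lists, and 27 of the 47 tested rose, 1 fell and 19 did not pass the test, beside 13.2% of all genes higher and 7.31% lower. Without coculture 3, more of these genes passed the filter on low counts. Then 35 rose and 4 fell, beside 20.6% of all genes higher and 1890 of 12267 genes lower. Of 12 other enzymes and partners of collagen modification in the matrix, 9 were tested, 4 rose and 1 fell. Their median log2 fold change was 0.94. Without coculture 3 it was 1.80 and 8 rose, over a larger set, because Loxl4, P4ha3 and P3h4 then passed the filter. Fkbp10, a prolyl isomerase that works with lysyl hydroxylase 2, rose by 9.53 ± 0.49 on the log2 scale (adjusted p = 1.35e-05), from 0.229 ± 0.191 to 206 ± 37.5 CPM. Crtap, the partner of P3h1, rose by 2.07 ± 0.27 (adjusted p = 0.00079). P3h3, a further prolyl 3-hydroxylase, rose by 2.60 ± 0.63 (adjusted p = 0.018), a call that was lost when any library of MKs alone or coculture 4 was left out (2.24 to 2.74). Tmem38b, an endoplasmic reticulum cation channel, fell by 1.76 on the log2 scale (SE 0.55, adjusted p = 0.049). That call was lost when any library other than coculture 3 was left out, with log2 fold changes between −1.997 and −1.71. P4hb, the beta subunit of prolyl 4-hydroxylase, went from 419 ± 69.9 to 661 ± 159 CPM and did not pass the test (0.66 ± 0.22, adjusted p = 0.064). Ppib, the other partner of P3h1, went from 111 ± 5.11 to 213 ± 26.3 CPM (0.94 ± 0.17 on the log2 scale, adjusted p = 0.0038), under the fold change of 2. Without coculture 1 or coculture 4 Ppib passed (1.003 and 1.03).

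Of 10 genes tested for procollagen export and processing, 7 rose and 3 did not pass, with a median log2 fold change of 3.58. Without coculture 3, 8 rose and 1 fell, with a median of 3.31. Pcolce, the enhancer of procollagen C-proteinase, had 2 counts in MKs alone and 176 ± 39.4 CPM in cocultures, a ratio of 2566 (95% counting interval 710 to 21195, adjusted p = 6.1e-06). Adamts14, a procollagen N-proteinase, had 2 counts in MKs alone and 3.89, 3.78, 65.4 and 9.37 CPM in cocultures (adjusted p = 0.0061), so coculture 3 was the highest. Adamts2, the main N-proteinase of type I collagen, had 46.3, 47.0, 0.314 and 42.7 CPM in cocultures and 1.38 ± 0.45 CPM in MKs alone. It rose by 4.59 ± 1.16 (adjusted p = 0.021), which was lost when any library of MKs alone was left out (4.42 to 4.81). Tgm2, the transglutaminase that cross-links matrix proteins in another way, rose by 4.17 ± 0.80 (adjusted p = 0.0060), from 3.78 ± 0.71 CPM to 22.9, 26.8, 194 and 31.7 CPM, and by 2.79 without coculture 3, where it was highest. DESeq2 did not call Tgm2, although with all libraries it gave a log2 fold change close to the 4.17 of edgeR. A missing adjusted p would also leave Tgm2 uncalled, so this is not read as a failed test. Mia2 and Mia3, which load procollagen into transport carriers, had log2 fold changes of −0.77 ± 0.27 (adjusted p = 0.076) and −0.22 ± 0.24 (adjusted p = 0.57). Mia2 passed the test as lower without coculture 3 (−1.12, adjusted p = 1.95e-05). When libraries were scaled to MK and platelet markers, both values turned to 0.15 and 0.47.

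Of 9 substrates of the enzymes in the matrix 8 were tested, and these 8 rose, with a median log2 fold change of 8.49. Col1a1, Col3a1, Col5a2 and Fbn1 passed the filter on low counts only through the cocultures. The same holds for Fkbp10, Pcolce, Adamts14 and Efemp2. Once tested, these genes could only be called higher, so their direction adds no support. Col5a1, Adamts2 and P3h3 were under the filter's cutoff in some libraries of MKs alone and also needed the cocultures to pass. Without coculture 3, Col6a1, which had no count in MKs alone, was also tested. Over this larger set 9 rose and the median was 10.20. Col1a1 rose by 10.96 ± 0.86 (adjusted p = 5.7e-05), from 7 counts in MKs alone. Col3a1, of type III collagen, and Col5a2, of type V collagen, had 1 count each in MKs alone and 277 ± 150 and 300 ± 152 CPM in cocultures. Their ratios were 8104 (95% counting interval 1454 to 320117, adjusted p = 4.7e-05) and 8596 (1542.5 to 339569, adjusted p = 3.85e-05). Fbn1, which encodes the microfibril protein fibrillin-1, rose by 10.09 ± 0.68 (adjusted p = 2.8e-05). Of 3 matrix scaffolds of the lysyl oxidases that were tested, 2 rose, with a median log2 fold change of 4.84. Without coculture 3, Fbln5 and Fmod, which had no count in MKs alone, also passed the filter. Over this larger set 5 rose and the median was 8.18, so the medians cover different genes. Fn1 (fibronectin) rose by 4.84 ± 0.40 (adjusted p = 7.5e-05), from 22.3 ± 2.31 to 637 ± 270 CPM. Efemp2, which encodes fibulin-4, the protein that brings Lox to elastin, rose by 8.34 ± 0.75 (adjusted p = 0.00011). Postn (periostin) had 27.7, 21.8, 0 and 16.5 CPM in cocultures and did not pass the test (adjusted p = 0.18), but passed without coculture 3 (3.38, adjusted p = 3.0e-05).

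**Figure D4:**
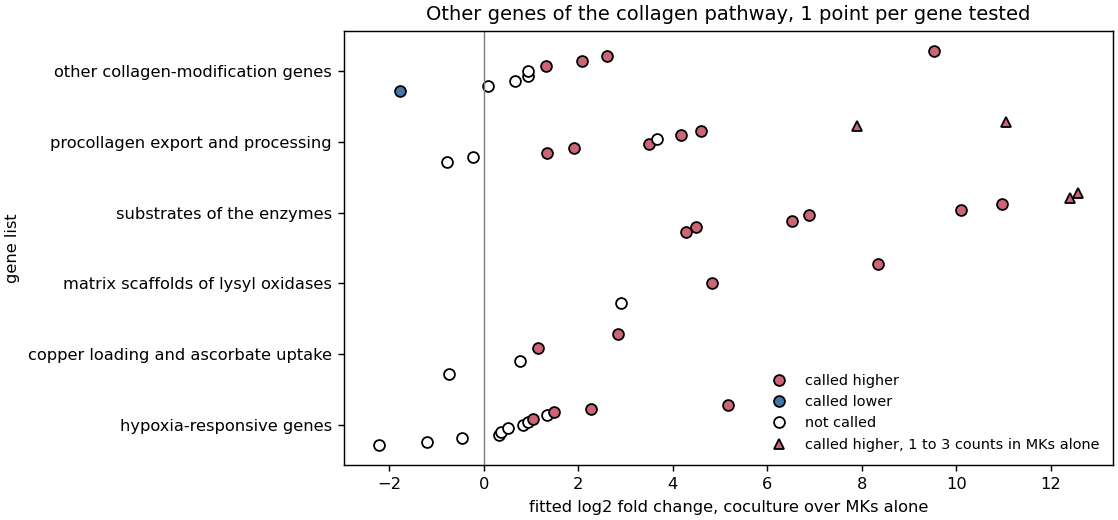
Fitted log2 fold change of coculture over MKs alone (x axis) for each tested gene of 6 pathway lists (y axis), with 1 point per gene. Red points were called higher, blue lower and white not called, and triangles are genes with 1 to 3 counts in MKs alone, whose fitted value depends on the model. All 8 substrates lie above 4 on the log2 scale, and the hypoxia-responsive genes lie on both sides of 0.

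Lysyl oxidases need copper and prolyl hydroxylases need ascorbate. Of 4 tested genes of copper loading and ascorbate uptake, Atox1 and Slc23a2 rose, and 2 rose without coculture 3. The median log2 fold change was 0.95, and 1.05 without it. Atox1, the copper chaperone of the secretory pathway, had 20.5 to 44.02 CPM in MKs alone and 72.7, 107, 687 and 117 CPM in cocultures. It rose by 2.84 ± 0.74 (adjusted p = 0.024), lost when any library of MKs alone was left out (2.66 to 2.98), and by 1.5 without coculture 3, the highest library. DESeq2 did not call Atox1, although it gave a log2 fold change of 2.86 ± 0.73. As for Tgm2, a missing adjusted p would also leave Atox1 uncalled, so this is not read as a failed test either. Slc23a2, an ascorbate transporter gene, rose by 1.14 ± 0.28 (adjusted p = 0.020), which was lost when any library of MKs alone or cocultures 1 or 2 were left out (1.03 to 1.17). Slc31a1, the copper importer, went from 122 ± 15.2 to 207 ± 30.1 CPM (0.76 ± 0.18, adjusted p = 0.018), under the fold change of 2. Atp7a, the pump that loads copper into lysyl oxidase, had 9.89 to 16.6 CPM in MKs alone and 12.9, 8.47, 0 and 11.4 CPM in cocultures (adjusted p = 0.66).

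Several of the hydroxylases, among them P4ha1, P4ha2 and Plod2, are known to respond to hypoxia. Of 13 hypoxia-responsive genes outside collagen modification, 4 rose and 9 did not pass, with a median log2 fold change of 0.83. DESeq2 called 5 higher and 1 lower. Without coculture 3, 3 rose and 2 fell, with a median of 0.64, beside 20.6% of all genes higher and 1890 of 12267 genes lower. The 2 that fell, named after their values were seen, were Egln3, an oxygen-sensing prolyl hydroxylase gene, and Car9, a carbonic anhydrase gene. Egln3 had 17.7 to 25.6 CPM in MKs alone and 5.88, 6.25, 0.209 and 5.90 CPM in cocultures (−2.21 ± 0.81, adjusted p = 0.082, and −1.83, adjusted p = 1.54e-05, without coculture 3). Car9 had 4.63 to 8.54 CPM in MKs alone and 2.09, 2.996, 36.8 and 5.03 CPM in cocultures, so coculture 3 was the highest (0.83 ± 0.92, adjusted p = 0.56, and −1.04, adjusted p = 0.032, without it). Adm (adrenomedullin) rose by 5.16 ± 0.91 (adjusted p = 0.0040). It had 27 counts in MKs alone and passed the filter on low counts only through the cocultures, so its direction adds no support. The glucose transporter gene Slc2a1 rose by 2.27 ± 0.28 (adjusted p = 0.00058). Vegfa rose by 1.5 ± 0.27 (adjusted p = 0.0042). Ldha, a lactate dehydrogenase gene, rose by 1.04 ± 0.20 (adjusted p = 0.0053) and was under the fold change of 2 without MKs alone 1, coculture 2 or coculture 3 (0.97 to 0.99). Pgk1, a glycolytic kinase gene, had a log2 fold change of 0.93 ± 0.26 (adjusted p = 0.031) and passed without coculture 1 or 4 (1.003 and 1.13). Bnip3, a mitophagy receptor gene, had 0.33 ± 0.24 (adjusted p = 0.35).

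Markers of other cells also differed between the groups, in both directions. The MSC, smooth muscle and macrophage markers are drawn in the plot of summed levels. Of 7 tested MSC markers 5 rose, and the summed level of the list was 127 to 169 CPM in MKs alone and 420 to 960 CPM in cocultures, lowest in coculture 3. Much of the level in MKs alone came from Itgav (28.3 to 54.7 CPM) and Vcam1 (84.3 to 104 CPM), which MKs or other marrow cells also express. Pdgfra, the gene of the sorting marker CD140a, had 34.8, 26.6, 0.209 and 24.8 CPM in cocultures and at most 0.515 CPM in MKs alone, where 2 libraries were at 0. Prrx1 and Ebf3 went the other way, with 253 and 36.5 CPM in coculture 3 and at most 183 and 2.65 CPM in the other cocultures. The other MSC markers in the matrix were lowest of the cocultures in coculture 3. Pdgfra, Vcam1, Prrx1 and Ebf3 were named after their values were seen. All 4 tested smooth muscle and myofibroblast markers rose, with Acta2 the highest (31.5 ± 4.86 to 1486 ± 632 CPM, adjusted p = 2.6e-05), and Cnn1 and Des were at 0 in MKs alone. The summed level of this list was 27.8 to 37.7 CPM in MKs alone and 1504 to 3733 CPM in cocultures, highest in coculture 3, in which the enzymes were lowest. Of 9 tested macrophage markers 8 rose (157 to 235 CPM summed in MKs alone and 1035 to 2042 CPM in cocultures), with Cd68 the highest at 298 ± 143 CPM in cocultures. Of the markers that rose, Tagln, Cnn1, Actg2, Cxcl12, Prrx1, Ebf3, Mrc1, C1qa, C1qb and C1qc passed the filter on low counts only through the cocultures. The direction of these markers adds no support. All 9 neutrophil markers fell, and S100a8, the highest of them, went from 48457 ± 4889.8 to 4404 ± 1966 CPM. Of 5 tested endothelial markers Tek fell (adjusted p = 0.019), which was lost when any library of MKs alone was left out (−1.75 to −1.62), and the single tested osteoblast marker, Runx2, did not pass (adjusted p = 0.063). Pf4 was the highest MK and platelet marker, with 841 ± 210 CPM in MKs alone and 1070 ± 362 CPM in cocultures. The part of these other cells in the levels of the enzymes was not tested.

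**Figure D5:**
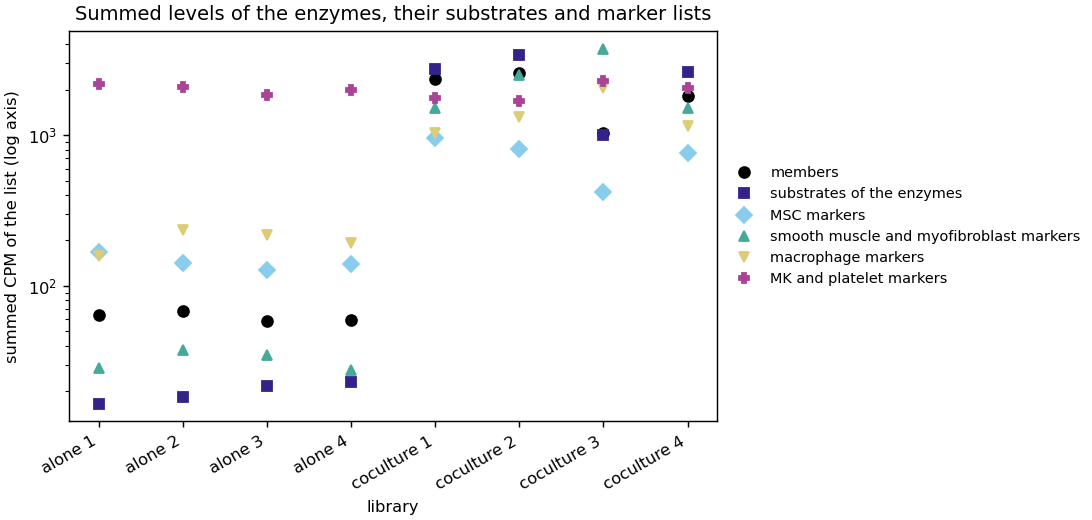
Summed CPM (y axis, log scale) of the 10 enzymes (members), their substrates and 4 marker lists in each of the 8 libraries (x axis). The enzymes and substrates lie at 1034 to 2569 and 1009 to 3411 CPM in cocultures, both lowest in coculture 3. The sums of the smooth muscle and macrophage markers are highest in coculture 3. The mean over the macrophage markers in log2(CPM + 1) is 5.75 there, inside the range of 5.50 to 6.22 of the cocultures. The ranges of the MK and platelet markers overlap between the groups.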

How the data were processed

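RNA was measured in 8 bulk libraries, 4 of MKs alone and 4 of MKs with MSCs, from cultures kept for 18 hours. Each library was assigned to its group and replicate number by its title. The values deposited by the authors are gene counts, whole and not normalized, in 1 column per library. By their methods, reads of SMART-Seq HT libraries were filtered with fastp and quantified with kallisto on the mm10 transcriptome, with versions not given in the sources used here. How transcript values were summed to genes and rounded, and whether strand was used, is not given there either. The authors' own test was DESeq2 with a batch term that is not named.

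All values here were computed from these counts. The quasi-likelihood model of edgeR 4.0.16 (R 4.3.3) was fitted with robust dispersion, TMM scaling and no covariate to all 8 libraries and the 11722 genes that filterByExpr kept, and p-values were adjusted over all of them by Benjamini-Hochberg. CPM took the place of the TPM cutoff of the study. In a single library, 3 counts were worth 0.284 to 0.662 CPM. Floors and intervals cover counting error only, because molecules were not tagged. Levels per length used the union of exons in GENCODE vM21 on GRCm38, where 13374 of 13387 symbols had a length. Promoters were read from a RefSeq table, and only the 250 bases before each start were searched. The tests were run on simulated counts first.

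The 10 genes, the lists and the tests were chosen with earlier results of these data known. Named were the 10 genes and, of each other pathway list, up to 4 called genes with the largest change and up to 2 genes tested and not called with the highest mean CPM. Also named were the highest gene and any gene at 0 of each marker list, and the 3 genes most like Lox, Serpinh1 and P4ha1. Other genes were named after their values were seen. The alternatives were DESeq2 1.42.0, RLE factors, library size only, scaling to MK and platelet markers, both other filters on low counts, glmTreat, the replicate number as a block, and each library left out. No column was left out of the reported values.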

Additional observations from a re-analysis of the deposited data

Results flagged for a closer look

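Within each group of 4 libraries, the gap of the highest or lowest library to its nearest neighbor was divided by the range and compared with the 95% critical value of Dixon's test. Of 132 groups tested 29 passed it, and 21 of the 29 were coculture 3. Chance would give 6.6 for independent groups. These groups share the same libraries, and some are means over genes that were also tested singly, so the counts cannot be compared as a test. A gene with counts in only 1 library of a group passes by construction. All values are in log2(CPM + 1).

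Among the enzymes, coculture 3 stood below the other cocultures for Loxl2 (2.51), Plod2 (0.27) and P4ha2 (1.85), and MKs alone 2 stood above its group for Serpinh1 (0.27, from 2 counts). The mean over the enzymes was 4.71 in coculture 3 and 6.87 to 7.27 in the other cocultures.

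Among the other pathway genes, coculture 3 was low for Adamts2 (0.39), Col5a2 (6.23), Postn (0), Atp7a (0) and Adm (2.12), and high for Tgm2 (7.60) and Mia2 (7.08). Its mean was low over the other enzymes and partners (3.88), the substrates (6.07) and the matrix scaffolds (3.03). MKs alone 3 was low over the matrix scaffolds (1.06). Col5a2 (0.14, MKs alone 2) and Col3a1 (0.29, MKs alone 1) stood apart through 1 count each, and coculture 4 was high for Vegfa (6.08).

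Among markers and genes with similar profiles, coculture 3 was low for Runx2 (3.31), S100a8 (10.56), Bgn (8.98), Hoxa10 (1.17), Sytl2 (0.14) and 5730507C01Rik (0.39), and for the mean of the neutrophil markers (7.18). Coculture 4 was low for Tek (2.42). MKs alone 4 was high for Ccl7 (0.41) and MKs alone 2 for the mean of the macrophage markers (2.87). No cause was tested for any of these values.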

How the results depend on the processing

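Of the 10 enzymes, 8 were called higher, 10 with DESeq2 or without coculture 3, 9 with scaling to MK and platelet markers, 7 with the replicate block (9.35% of all genes) and 8 under each other setting. The replicate numbers were not taken to pair the libraries, since same-numbered libraries deviated together with r of 0.37, 0.02, 0.15 and 0.03 over 11722 genes, not each above 0.1, and not every library correlated best with its own number. With the numbers as a block, 1096 genes were called higher and 573 lower, against 1544 and 857. Scaling to MK and platelet markers, which shifted the median of all genes to 0.72, gave 2460 and 412, glmTreat 818 and 303, and leaving out 1 library 1071 to 2530 and 539 to 1890. The split of higher against lower calls thus leaned further to higher with that scaling, whereas the cause of the other changes was not tested. Of the pathway genes 27 were called higher, and 20 to 35 over all settings. The single pathway gene called lower became 2 with DESeq2 and 0 with library size only, MK and platelet markers, the block or glmTreat (0 to 4 with 1 library left out).

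Calls of P3h3, Slc23a2, Tmem38b and Tek were lost with the block and with glmTreat, those of Adamts2 with the block, and those of Atox1, Vegfa and Ldha with glmTreat. Median log2 fold changes moved as follows. Scaling to MK and platelet markers gave 1.71 for other enzymes and partners, 4.01 for export and processing, 1.61 for copper and ascorbate, 1.82 for hypoxia-responsive genes and 0.50 for the MK and platelet markers, which had been at −0.30. The block gave 3.26 for export and processing and 0.40 for hypoxia-responsive genes, and library size only 0.58 for the latter. Without a filter on low counts the substrates were at 10.07, the scaffolds at 8.33 and the osteoblast markers at 3.77, because more genes were tested. With 1 library left out, the ranges were 0.91 to 1.80 for other enzymes, 3.25 to 3.86 for export, 8.42 to 10.80 for substrates, 4.68 to 8.77 for scaffolds, 0.64 to 1.13 for hypoxia-responsive genes and −1.13 to 4.36 for osteoblast markers. The genes tested in a list differed between some of these settings. Mia2 (0.15) and Mia3 (0.47) reversed with MK and platelet marker scaling, under which P4hb (1.335), Slc31a1 (1.45), Ppib (1.71) and Pgk1 (1.84) were called higher. With the longest transcript as length, 6 of the 10 enzymes kept their place in the coculture order. The coculture mean of P4ha2 was then 15.3 CPM per kilobase instead of 7.52, and that of Plod1 17.1 instead of 10.4. Family shares were not computed with that length. With 0.1 CPM added, 0 of the 3 genes most like Lox, 0 for Serpinh1 and 1 for P4ha1 were kept.

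Genes with few counts in MKs alone carry wide intervals, coculture 3 sets the spread of Plod2, P4ha1, P4ha2 and Loxl2, and shares of a family at few counts are imprecise.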
